A study of Mus musculus with 2 samples.

Results

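Expression of 35 centromere and kinetochore genes was examined on 2 arrays of mouse embryonic stem (ES) cells, of 19938 genes that could be named. The genes were listed by name and cover proteins of the centromere, the outer kinetochore, the spindle checkpoint and the chromosomal passenger complex. They were chosen with earlier results of these data known, so shares set beside those of all genes are descriptions and not independent support. Each of the 35 was read by 1 probe set whose platform annotation gives that gene symbol alone. Both arrays held RNA of ES cells derived from ROSA26-rtTA cells, in which a TRE-driven transgene encodes mouse CTCFL fused to a V5 tag and GFP and is switched on by doxycycline. CTCFL is a zinc finger protein of germ cells related to CTCF. Stably transfected cells had been selected with G418, and the sources used here do not give the number of clones behind the arrays. The induced cells had received doxycycline for 3 days and were sorted for GFP, and the non-induced cells had received no doxycycline and were not sorted. All cells were grown with LIF on gelatin. With 1 array per group there were no replicates, so no test was made and the values describe these arrays. Doxycycline, CTCFL and sorting cannot be told apart.

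The centromere is built on nucleosomes that carry the histone H3 variant CENP-A. The constitutive centromere associated network sits on these nucleosomes through the whole cell cycle, and at mitosis it recruits the outer kinetochore, whose Ndc80 complex grips the microtubules of the spindle. The spindle checkpoint holds back anaphase until every kinetochore is attached, and the chromosomal passenger complex with Aurora B kinase removes wrong attachments. ES cells divide fast and express this machinery strongly, and transcripts of many of its genes peak before mitosis, under promoters with CCAAT boxes and a cell cycle homology region (CHR).

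Values are log2 signals after robust multi-array averaging, and differences are induced minus non-induced, so that -1 stands for a 2-fold lower signal in the induced array. To be called lower or higher, a gene had to differ by at least log2 1 and to reach the floor, set at the median of all gene values (6.36), in at least 1 array. All 35 members reached the floor, 32 of them in both arrays and 3 (Cenpc1, Cenpj and Itgb3bp) in the non-induced array alone. Ctcfl was at 9.44 in the induced and 5.99 in the non-induced array, as labelled, and Ctcf was at 8.66 and 8.93. The ES cell genes Pou5f1 (11.98 and 11.96) and Nanog (10.86 and 11.08) were well above the floor in both. In bulk RNA, fewer cells that express a gene and less RNA per cell cannot be told apart.

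Of the 35 members 5 were lower by log2 1 or more in the induced array and 0 higher, against 1.79% of the 10697 genes at the floor that were lower and 0.477% that were higher. All 5 encode subunits of the constitutive network, namely Itgb3bp, Cenpq, Cenpp, Cenpk and Cenpw. At a size of log2 0.58, or 1.49-fold, 10 members were lower and 0 higher, against 8.45% and 5.31% of the genes at the floor. Below 0 were 25 members, or 71.4%, against 53.4% of the genes at the floor. The median difference of the members was -0.28, that of the genes at the floor -0.03. For 6 members the difference lay below the middle 95% of these genes (-0.89 to 0.72) and for 0 above it.

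**Figure D1:**
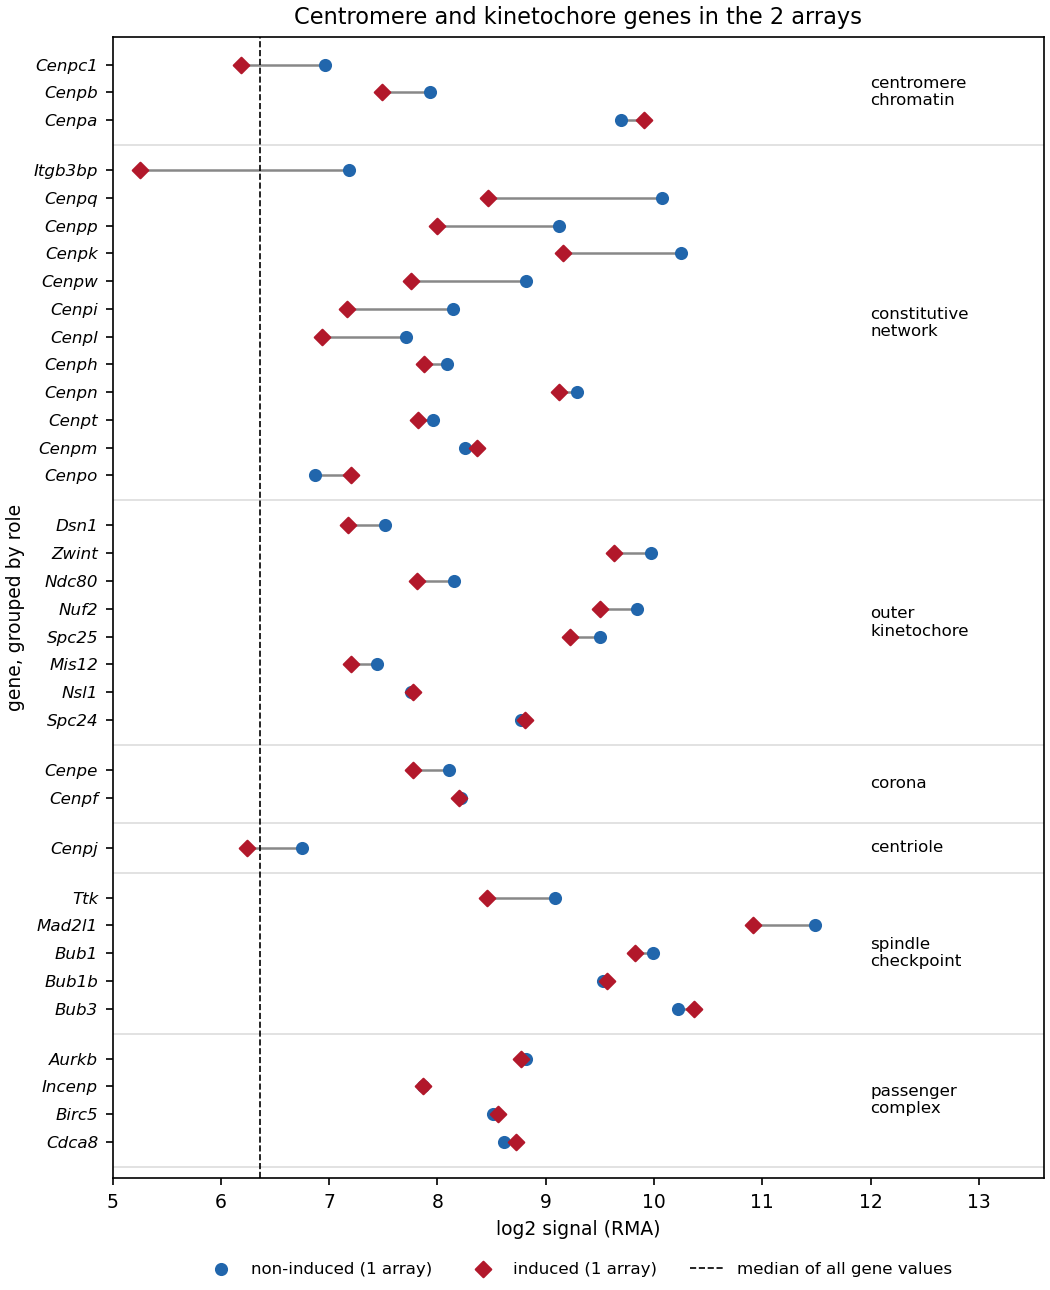
Log2 signal of the 35 members (horizontal axis) in the induced (diamonds) and the non-induced array (circles), 1 array each, grouped by the role of the protein. A dashed line marks the floor (6.36). The widest gaps lie in the constitutive network, from Itgb3bp (5.25 against 7.18) to Cenpw (7.76 against 8.82), while the passenger complex genes lie almost on each other.

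The promoter windows of 4 members are shown as examples of windows with differing motifs. The windows belong to the 3 lower members Itgb3bp, Cenpq and Cenpw, and to Cenpa, whose signal was not lower. Those of Cenpw and Cenpa both hold CCAAT and a CHR, but differ in the number, strand and position of the matches. Each window runs from 250 bases before to 50 bases after the annotated start in RefSeq (GRCm38.p6), on the strand of the gene. Capitals mark CCAAT and the CHR letters TTTGAA or TTCGAA, on either strand.
Itgb3bp (chr4:99829109-99829408, minus strand): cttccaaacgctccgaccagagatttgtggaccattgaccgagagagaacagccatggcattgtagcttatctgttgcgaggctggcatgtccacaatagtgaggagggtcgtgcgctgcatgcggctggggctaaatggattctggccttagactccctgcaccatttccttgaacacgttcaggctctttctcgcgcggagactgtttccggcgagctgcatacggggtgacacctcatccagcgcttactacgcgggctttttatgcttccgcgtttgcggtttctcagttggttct
Cenpq (chr17:40934525-40934824, minus strand): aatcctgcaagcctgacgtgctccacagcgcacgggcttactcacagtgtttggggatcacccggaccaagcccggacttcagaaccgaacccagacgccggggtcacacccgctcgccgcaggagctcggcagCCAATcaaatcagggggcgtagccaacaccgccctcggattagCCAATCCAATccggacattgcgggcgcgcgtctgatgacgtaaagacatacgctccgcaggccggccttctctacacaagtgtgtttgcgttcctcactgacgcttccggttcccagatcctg
Cenpw (chr10:30200491-30200790, minus strand): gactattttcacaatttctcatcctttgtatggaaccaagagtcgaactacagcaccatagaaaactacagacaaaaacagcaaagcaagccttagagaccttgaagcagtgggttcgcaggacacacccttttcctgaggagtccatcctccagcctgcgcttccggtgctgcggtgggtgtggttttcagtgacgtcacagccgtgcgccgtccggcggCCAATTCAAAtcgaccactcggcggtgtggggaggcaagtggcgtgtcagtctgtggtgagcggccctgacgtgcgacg
Cenpa (chr5:30666636-30666935, plus strand): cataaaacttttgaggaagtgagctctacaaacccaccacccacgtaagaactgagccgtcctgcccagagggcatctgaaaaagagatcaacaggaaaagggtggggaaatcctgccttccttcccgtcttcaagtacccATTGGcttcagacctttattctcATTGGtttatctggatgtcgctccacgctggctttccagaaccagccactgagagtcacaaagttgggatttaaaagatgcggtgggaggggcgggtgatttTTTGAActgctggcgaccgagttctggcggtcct

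The window of Itgb3bp held neither motif, and the same was true of Cenpp, a lower member not shown. That of Cenpq held 3 CCAAT boxes, 2 of them side by side, and no CHR. Cenpk, also lower and not shown, likewise had CCAAT and no CHR. In Cenpw a CCAAT box shared 1 base with a CHR, and the window of Cenpa held 2 CCAAT boxes on the opposite strand and a CHR 16 bases past the start.

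Motifs were counted on both strands in the windows of the 31 members that the promoter table holds. CCAAT was present in 20 of them (64.5%, against 43.0% of 8562 genes at the floor with a window and 41.1% of all 27025 genes of the table). The CHR was present in 13 (41.9%, against 15.7% and 21.7%). An E2F site, taken as GGCGGGAA, TTTGGCGC or TTTCGCGC, was present in 6 (19.4%, against 6.76% and 3.39%). AGNNGGCGC, from the core of the CTCF consensus, was present in 3 (9.68%, against 15% and 8.19%). Of the 5 lower members, 3 had CCAAT, 1 a CHR, 0 an E2F site and 1 the CTCF letters, in 1 of the 3 windows of Cenpk. Of the other 26 members, 17 had CCAAT, 12 a CHR, 6 an E2F site and 2 the CTCF letters. The 12 members with both CCAAT and CHR had a median difference of -0.09, the 8 with CCAAT alone -0.56, and the 10 with neither -0.39. The 1 member with a CHR alone, Ndc80, was at -0.34. A match describes the letters of the window and is not a binding site.

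The centromere chromatin genes come first. Cenpa, the histone H3 variant itself, was at 9.90 in induced and 9.69 in non-induced cells (0.21). Cenpc1, which encodes CENP-C, the bridge from CENP-A nucleosomes to the outer kinetochore, was at 6.18 against 6.96, a difference of -0.78 with the induced value under the floor. Cenpb, which binds the CENP-B box of satellite repeats, was at 7.49 against 7.93 (-0.44). Of these 3 genes 2 thus lay below 0 and 1 above, and none was past log2 1.

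Of the 12 genes of the constitutive network 10 were below 0 (83.3%, against 53.4% of the genes at the floor). The median difference of the network was -0.88. Its best known architecture is a set of smaller complexes, and the genes were set out by these after their values had been seen. In the CENP-O, P, Q, R and U group, Itgb3bp, which encodes CENP-R, was at 5.25 in induced and 7.18 in non-induced cells. This is a difference of -1.93, and the induced value lies under the floor, so that the size is less certain than for the other 4 lower members. With 32 added to the linear values, which damps dim genes, it was -1.34.

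Cenpq, whose product contributes to microtubule binding, was at 8.47 against 10.08, 3.05-fold lower (-1.61). Cenpp was at 7.996 against 9.12, 2.18-fold lower (-1.13). Cenpo, a further subunit of the same complex, was at 7.20 against 6.87, a difference of 0.33 and the highest of the 35 members. The genes of 1 complex therefore spanned the range of all members. Cenpu, its remaining subunit and no member of the list, was at 7.51 against 7.86 (-0.35).

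In the CENP-H, I, K and M group, Cenpk was at 9.16 against 10.25, 2.14-fold lower (-1.10). Cenpi was at 7.16 against 8.15 (-0.98), just short of log2 1. Cenph differed by -0.21 and Cenpm by 0.11. In the CENP-T, W, S and X group of histone fold proteins, Cenpw was at 7.76 against 8.82, 2.09-fold lower (-1.06) and just past log2 1, and its direct partner Cenpt was at 7.82 against 7.96 (-0.14). In the CENP-L and N pair, Cenpl was at 6.93 against 7.70 (-0.78), and Cenpn, which recognises the CENP-A nucleosome, was at 9.13 against 9.29 (-0.16). In each of these groups at least 1 gene past log2 0.58 thus stood beside at least 1 partner whose values nearly coincided. The subunits S and X, no members of the list, were not near 0, with Cenps at -0.63 and Cenpx at -0.41.

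The call at log2 1 depended on the scaling for the members nearest to it. After a second quantile normalization 2 of the 5 were still past it (Itgb3bp at -1.97 and Cenpq at -1.49), while Cenpp was at -0.99, Cenpk at -0.98 and Cenpw at -0.94. Cenpw was also short of it with 32 added (-0.96).

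**Figure D2:**
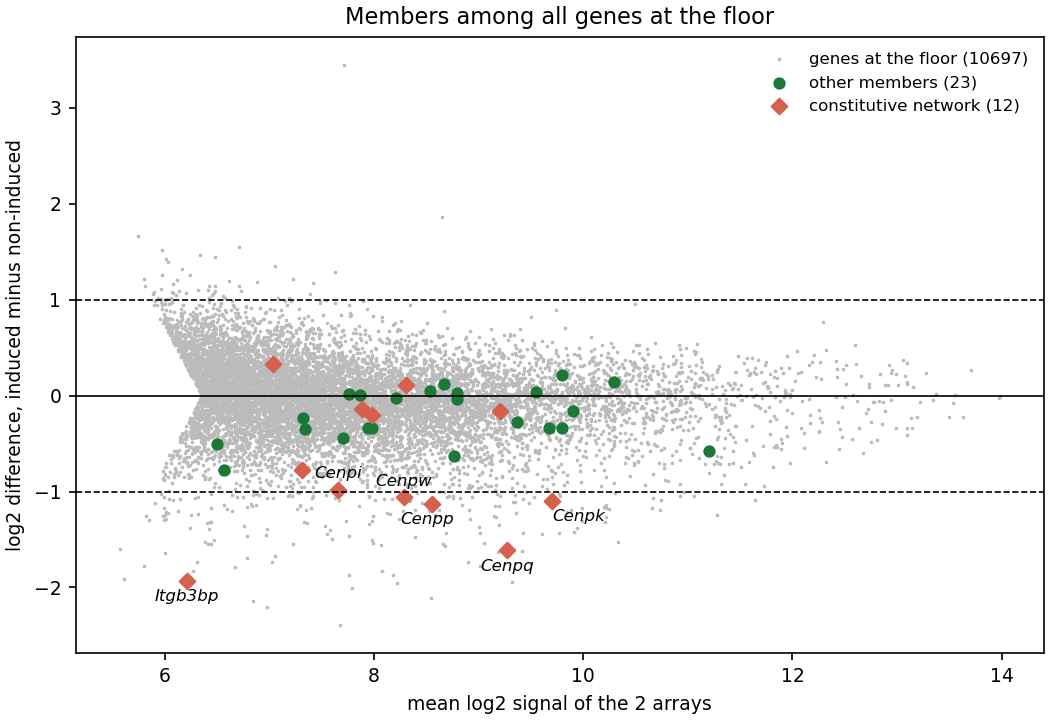
Log2 difference, induced minus non-induced (vertical axis), plotted on the mean of the log2 signals (horizontal axis) for the 10697 genes at the floor (grey), the 12 genes of the constitutive network (diamonds) and the 23 other members (circles). Dashed lines mark log2 1 either way. Itgb3bp (-1.93) and Cenpq (-1.61) lie lowest among the members, and none lies past the upper line.

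The outer kinetochore genes differed little and mostly one way. Of 8 genes 6 were below 0, with differences from -0.34 to 0.03 and a median of -0.31. The Ndc80 complex, the microtubule grip, was represented by Ndc80 (7.81 against 8.15, -0.34), Nuf2 (9.51 against 9.84, -0.33), Spc25 (9.23 against 9.50, -0.28) and Spc24 (8.81 against 8.78, 0.03). Of the Mis12 complex, which joins the Ndc80 complex to the inner centromere, Dsn1 was at 7.17 against 7.52 (-0.34), Mis12 at 7.20 against 7.44 (-0.24) and Nsl1 at 7.77 against 7.76 (0.01). Zwint, which helps to recruit the checkpoint complex with ZW10, was at 9.63 against 9.97 (-0.34). None was lower by log2 0.58, against 8.45% of the genes at the floor. The corona genes were at 7.77 against 8.11 for Cenpe, a kinesin motor (-0.34), and at 8.20 against 8.22 for Cenpf (-0.02). Cenpj, whose product CPAP lengthens centrioles and is not a kinetochore protein in spite of its symbol, was at 6.24 against 6.75 (-0.51).

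Among the spindle checkpoint genes, the kinase gene Ttk, which encodes MPS1 and starts the checkpoint signal, was at 8.45 against 9.08 (-0.63). Mad2l1, which encodes the anaphase inhibitor MAD2, was at 10.91 against 11.49 (-0.58). Both were past log2 0.58, Mad2l1 only just. The others of the 5 were not, with Bub1, a kinase of kinetochore chromatin, at 9.83 against 9.99 (-0.16), Bub1b, which encodes BUBR1, at 9.57 against 9.53 (0.03), and Bub3 at 10.37 against 10.22 (0.14).

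The passenger complex showed the narrowest range. Aurkb, its kinase, was at 8.78 against 8.82 (-0.04), the scaffold Incenp at 7.87 in both arrays (0.00), Birc5, which encodes survivin, at 8.56 against 8.51 (0.05) and Cdca8, which encodes borealin, at 8.73 against 8.61 (0.12). The median of the 4 was 0.03. The differences of Cenpf and Aurkb were above 0 after lowess and after a second quantile normalization. Those of Spc24, Nsl1, Bub1b, Incenp and Birc5 were below 0 after centring alone, which shifts all genes alike. The other 23 of the 25 members below 0 stayed below it in every scaling tried.

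Further centromere and kinetochore genes that are not members were listed for comparison. Of the 24 that were measured, 21 were below 0 (87.5%, against 53.4% of the genes at the floor) and the median was -0.23. Past log2 1 were 2 genes downwards and 0 upwards, against 1.79% and 0.477% of the genes at the floor. The lower genes were Spdl1, which brings dynein to kinetochores (6.22 against 7.28, -1.06), and Kif18a, a kinesin that limits chromosome movement (8.69 against 9.73, -1.05). Ska2, of the SKA complex on microtubules, was at 9.28 against 10.13 (-0.85) and Cenps at 7.80 against 8.43 (-0.63). Cenpx, which pairs with Cenps, was at -0.41 and the outer kinetochore scaffold gene Knl1 at -0.53. The upward end was held by Cenpv (0.34) and Pmf1, of the Mis12 complex (0.32).

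Other cell division genes were listed too. Of 31 mitotic genes outside the kinetochore 18 were below 0 (58.1%, near the 53.4% of the genes at the floor). Their median was -0.08, and 0 were lower by log2 1, against 1.79% of the genes at the floor. The widest were Kif20b, a cytokinesis kinesin (-0.93), Nusap1 (-0.65), the condensin gene Smc2 (-0.64) and Mki67 (-0.51). Of the mitotic kinase genes, Plk1 and Aurka were at 0.11 and 0.17, and Nek2 and Cdk1 at -0.05 and -0.40. Of 30 DNA replication genes 19 were below 0 (63.3%), with a median of -0.11 and 0 past log2 1. Widest among them were the clamp loader gene Rfc4 (-0.71), Orc5 (-0.66), Gins1 (-0.65) and Orc2 (-0.64). Whether the share of mitotic cells differed between the arrays was not tested.

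**Figure D3:**
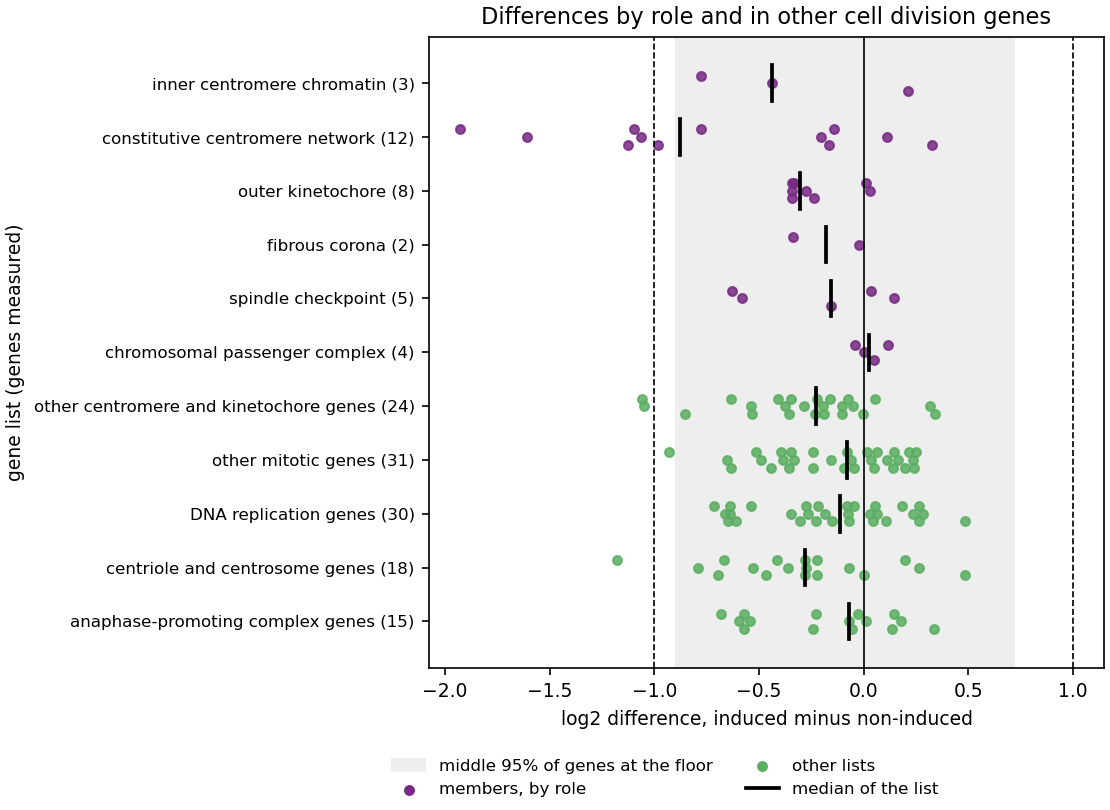
Log2 difference, induced minus non-induced (horizontal axis), of the members by role (purple) and of other cell division lists (green), 1 point per gene, with the median of each list (bar) and the number of genes measured in brackets; the centriole gene Cenpj is not drawn. The shaded band is the middle 95% of genes at the floor (-0.89 to 0.72). The constitutive network has its median at -0.88, and the other lists have theirs between -0.44 and 0.03.

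The neighbours of the lower members were then examined, because several start next to another coding gene. This was set out after the values had been seen, so the counts below are descriptions. Aurkb, Incenp, Nsl1 and Spc24 had no promoter window and were left out. Of the 31 members with a window, 9 (29.0%) had a coding gene that ends or begins within 1000 bases of the start. The share was 21.1% for the 8562 genes at the floor with a window. For 6 of the 9 members this neighbour was measured and at the floor. Of these 6 neighbours 5 were below 0 and 1 was lower by log2 1, against 53.4% and 1.79% of all genes at the floor. Efcab7, a ciliary protein gene 287 bases from the start of Itgb3bp, was at 7.24 in induced and 9.20 in non-induced cells (-1.96). Both genes of this locus were thus lower by log2 1 or more, by different probe sets, and with 32 added to the linear values Itgb3bp was at -1.34 and Efcab7 at -1.76. On the other side of Itgb3bp, Alg6, an enzyme gene of protein glycosylation, was at 6.87 against 6.81 (0.06).

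At the other lower members the neighbour at the start was not past log2 1. Mmut, which encodes methylmalonyl-CoA mutase and lies 111 bases from the start of Cenpq, was at 8.87 against 8.77 (0.10), while Cenpq was at -1.61. Ppwd1, a splicing-associated isomerase gene 122 bases from Cenpk, was at 9.55 against 10.01 (-0.45). Nol8, a nucleolar protein gene 347 bases from Cenpp, was at 8.37 against 9.14 (-0.76), and Ippk, which overlaps the far end of Cenpp, was at 6.85 against 6.62 (0.23). The genes on the far sides of Cenpq (Glyatl3) and Cenpk (Adamts6) were under the floor in both arrays. For Cenpw the nearest measured genes lie far away, with Rspo3 at 5.51 against 5.41 (0.10) and Gm4780 at 6.67 against 6.43 (0.24). At members that were not lower, Derl2 was at -0.82 beside Mis12 (-0.24), and Ptrhd1 was at -0.73 beside Cenpo (0.33), but at 0.49 by its other probe set. Of 25 lower genes at the floor with such a measured neighbour, 4 had a neighbour that was also lower by log2 1. They lie at 3 loci, since the histone genes H2ac1 and H2bc1 count for each other. The others are Rpf2 beside Gtf3c6 and Itgb3bp beside Efcab7. Of all genes at the floor 1.79% were lower. Since Itgb3bp with Efcab7 is among the 4 and its values had been seen, the comparison is not independent support for that pair. Neighbours of genes that were not lower were not counted in this way.

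**Figure D4:**
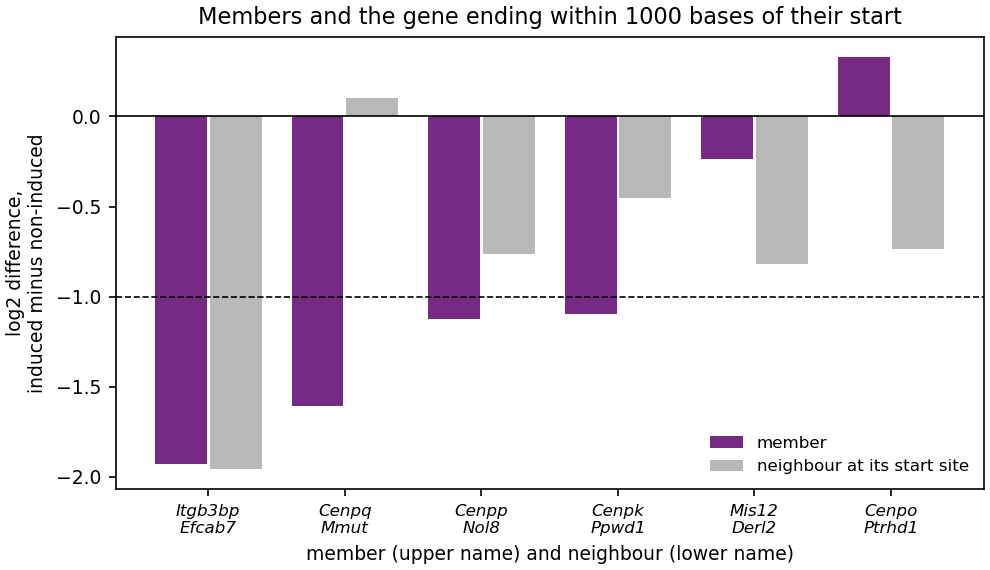
Log2 difference, induced minus non-induced (vertical axis), of 6 members (purple) and of the measured coding gene at the floor within 1000 bases of the start of each (grey). The dashed line marks log2 1 downwards. Itgb3bp (-1.93) and Efcab7 (-1.96) lie side by side, whereas Cenpq (-1.61) stands beside Mmut (0.10).

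Markers of other cells were set beside these results, since 1 culture was sorted. The summed signal of 12 ES cell markers was 14.56 on the log2 scale in both arrays, with a median difference of -0.01. Such a sum mostly reflects the brightest genes, here Dppa5a (13.16 against 13.02). The single differences ran from -0.46 (Zfp42) to 0.49 (Tfcp2l1), 7 below 0 and 5 above. Of 10 fibroblast markers, 6 of them at the floor, 8 had a difference above 0 and 0 were higher by log2 1. Their median difference was 0.41, and their summed signal was 10.64 against 10.60. The brightest, Vim, was at 9.71 against 9.96 (-0.25). The others at the floor were all higher, namely Loxl1 (0.85), Col3a1 (0.53), Col1a2 (0.47), Col1a1 (0.42) and Thy1 (0.41). Of 8 endoderm markers, 4 at the floor, 5 had a difference above 0, and the summed signal of the 8 was 9.21 against 9.15. The widest was Foxa2, at 5.83 against 6.68 (-0.85), with the induced value under the floor. Of 6 neural markers, 3 at the floor, 3 had a difference above 0, and the summed signal was 9.58 against 9.71. Of the 3 at the floor 1 was lower by log2 1, Stmn2, at 6.67 against 7.86 (-1.19). Pax6 (1.12) and Neurod1 (-0.81) were under the floor in both arrays. The part of all these markers in the differences of the centromere genes was not tested.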

How the data were processed

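Total RNA (300 ng per array) of the induced and the non-induced cells was labelled by the authors and hybridized to Affymetrix Mouse Gene 1.0 ST arrays, 1 per group. The deposited values are log2 signals per probe set, made by the authors with RMA (background correction, quantile normalization and probe summary). The sources used here name no software version, array annotation or build. The log2 unit was read from the range of 1.36 to 14.47. RMA compresses differences of dim genes, and the number of arrays limits the precision.

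Of 35557 probe sets 21789 had 1 symbol in the platform annotation, and 21698 of these matched RefSeq (GRCm38.p6) by gene identifier. Of 19938 genes 999 had several probe sets, and the one with the highest mean was used. No probe set with several symbols named a member. Members were matched by platform symbol. Members and lists were chosen with earlier results of these data known; complexes and start-site neighbours were set out after the values were seen. The rule for named genes took all members, Ctcfl, Ctcf, up to 4 genes at the floor with the widest difference of each pathway or comparison list and the genes beside lower members. Outside it, Cenpu, Cenpx, Knl1, Cenpv, Pmf1, Plk1, Aurka, Nek2, Cdk1, Stil, H2ac1, H2bc1, Rpf2, Gtf3c6, Derl2 and Ptrhd1 were named. So were the markers Pou5f1, Nanog, Dppa5a, Zfp42, Tfcp2l1, Vim, Loxl1, Col3a1, Col1a2, Col1a1, Thy1, Foxa2, Stmn2, Pax6 and Neurod1.

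Results were recomputed after median centring, after a lowess fit on mean level (fraction 0.3), after quantile normalizing again, with the mean of probe sets, with 32 added to linear values, at a size of log2 0.58, without a floor, with a floor at the 75th percentile and with the mean of the members. The calls at log2 1 were tested on simulated shifts, as reported and after centring, lowess and quantile normalization. The other steps were not tested in this way. Scripts ran under Python 3.11.15 (numpy 2.4.6, pandas 2.3.3) with statsmodels 0.14.6 for lowess, scipy 1.17.1 for ranks and matplotlib 3.10.9 for plots. Promoter sequences are from RefSeq.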

Additional observations from a re-analysis of the deposited data

How the results depend on the processing

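The number of members lower by log2 1 was 5 as reported, 2 after a second quantile normalization (against 1.5% of genes at the floor) and 10 at a size of log2 0.58. It was between 4 and 6 under the other alternatives, with Cenpi added after centring (2.52% of genes lower), Cenpw lost after lowess (1.62%) and with 32 added (1.01%), and Itgb3bp lost with the floor at the 75th percentile (2.47%). The number higher was 0 in all of them. The median difference of the members lay between -0.38 (mean of the members, and median after centring) and -0.19 (quantile normalization), and none of the 5 lower members changed sign. The median of all genes at the floor moved along, from -0.03 as reported to -0.13 after centring and 0.03 after quantile normalization. No paired analysis was possible because each group has 1 array. Without replicates, no difference can be set against the spread between cultures.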

Other observations

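Genes of the centriole and of the anaphase-promoting complex, which acts once the checkpoint is satisfied, were also listed. Of 18 centriole and centrosome genes 14 were below 0 (77.8%, against 53.4% of the genes at the floor), with a median of -0.28. Cetn3, which encodes a centrin of the centriole, was the 1 gene lower by log2 1 (10.07 in the induced against 11.25 in the non-induced array, -1.18). Sass6, the cartwheel protein gene, was at -0.79 and Cetn2 at -0.67, while the probe sets of Cep63 disagreed (-0.70 and 0.49), and Stil, a partner of Cenpj in centriole assembly, was at 0.48. Of 15 anaphase-promoting complex genes 10 were below 0 (66.7%), with a median of -0.07 and 0 past log2 1. Cdc26 was at -0.68, Anapc4 at -0.60, and Anapc16 and the inhibitor gene Fbxo5 at -0.57.

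The members had a median of 20 protein-coding genes within 1 Mb, against 30 for 10310 coding genes at the floor. The 5 lower members had a median of 16 and the other 30 a median of 21.5. Spearman's rho between this number and the difference was 0.41 across the 35 members and 0.19 across the 10310 genes. These are correlations across genes of the same arrays, and genes are not independent replicates.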
